A study of Mus musculus with 6 samples.

Results

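A set of 10 genes that mark simple epithelia and epithelial tumours was followed in H3K4me3 region lists from CD8+ tumour-infiltrating lymphocytes. The genes were Krt8, Krt18, Krt19, Epcam, Cdh1, Esrp1, Cldn4, Cldn7, Grhl2 and Elf3, which are 10 of 21887 protein-coding genes. A region belonged to a gene if it overlapped the gene body or the 5 kb on either side, on the GRCm38 build. This rule gave 25 of the 48546 wild-type regions and 27 of the 46565 knockout regions. All cells came from C57BL/6 mice carrying tumours of the line that the labels call e0771, known as E0771, a mouse mammary tumour line. One genotype was wild type and the other carried a Cre-mediated deletion of Atg5, a gene needed to form autophagosomes. The labels name neither the Cre driver nor the age of the mice, and do not say whether mice were pooled. Each genotype had 1 H3K4me3 library, so no difference below has a replicate check and none was tested.

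H3K4me3 is trimethylation of lysine 4 of histone H3, a mark concentrated at the starts of active and poised genes. Epithelial cells are held together by cadherin and claudin junctions, carry filaments of paired keratins, and keep this state through a small set of regulators that include GRHL2, ELF3 and the splicing factor ESRP1. E-cadherin, encoded by Cdh1, is commonly reduced when epithelial tumour cells take on mesenchymal features. T lymphocytes do not form such junctions and are not known to build keratin filaments.

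The labelled cell type was compared with 15 T cell markers over the same window. All 15 had a region in the knockout list, with covered lengths (bp under regions) from 5228 to 47528 bp and a sum of 254560 bp. In the wild-type list 12 had a region (80.0%), the range was 0 to 8120 bp and the sum was 37934 bp. Of all protein-coding genes, 72.3% had a knockout region and 72.8% a wild-type region. The share of T cell markers with a wild-type region was thus not under that of all genes. Cd3e, Cd8a and Thy1 had none in the wild-type list, so that library lacked regions at these defining genes of the labelled cells. The summed covered length of the 10 epithelial genes was 27827 bp (wild type) and 29511 bp (knockout). The part that cell composition played in any difference below was not tested. In these bulk libraries, fewer cells with the mark and less of the mark in each cell cannot be told apart.

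RefSeq start positions and promoter windows of 300 bases (250 before the start and 50 after it, GRCm38.p6) were at hand for 6 of the 10 genes, namely Krt8, Krt18, Epcam, Cldn4, Cldn7 and Elf3. Cldn7 had 2 windows, which makes 7 in all. Wild-type regions met 3 of the 7 windows and knockout regions met 4, against 43.9% and 45.7% of all 32851 windows. The 5 windows printed next show the range of outcomes. Those of Krt8 and Elf3 lay wholly under a region in both lists. The second window of Cldn7 was covered in the knockout only. The windows of Epcam and Cldn4 were met in neither list. Capitals mark the E-box CAGGTG or its complement CACCTG, the letters bound by SNAI and ZEB factors, which repress epithelial genes.
Krt8, chr15:102004293-102004592, minus strand: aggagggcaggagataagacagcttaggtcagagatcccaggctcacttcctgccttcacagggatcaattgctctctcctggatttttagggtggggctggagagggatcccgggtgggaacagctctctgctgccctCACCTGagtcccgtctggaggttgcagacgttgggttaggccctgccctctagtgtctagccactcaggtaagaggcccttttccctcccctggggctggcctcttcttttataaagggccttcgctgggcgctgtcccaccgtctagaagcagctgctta
Elf3, chr1:135258423-135258722, minus strand: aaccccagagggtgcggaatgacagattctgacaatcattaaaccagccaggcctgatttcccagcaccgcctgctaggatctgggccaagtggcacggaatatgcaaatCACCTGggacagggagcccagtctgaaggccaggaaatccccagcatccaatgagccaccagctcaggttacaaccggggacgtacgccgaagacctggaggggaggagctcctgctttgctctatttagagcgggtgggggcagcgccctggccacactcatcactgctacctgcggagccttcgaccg
Cldn7 second start, chr11:69965171-69965470, plus strand: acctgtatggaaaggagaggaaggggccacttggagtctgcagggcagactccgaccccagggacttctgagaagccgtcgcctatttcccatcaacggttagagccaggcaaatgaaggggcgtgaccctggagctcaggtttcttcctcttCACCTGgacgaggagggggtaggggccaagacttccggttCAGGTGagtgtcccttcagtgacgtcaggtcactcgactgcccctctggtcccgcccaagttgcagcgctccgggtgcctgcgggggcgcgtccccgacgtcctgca
Epcam, chr17:87635729-87636028, plus strand: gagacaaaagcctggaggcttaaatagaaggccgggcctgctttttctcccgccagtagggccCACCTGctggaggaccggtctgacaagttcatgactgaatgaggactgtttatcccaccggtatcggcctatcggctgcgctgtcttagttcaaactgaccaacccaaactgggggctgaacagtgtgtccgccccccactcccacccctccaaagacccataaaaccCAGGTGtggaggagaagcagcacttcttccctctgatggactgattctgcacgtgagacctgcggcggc
Cldn4, chr5:134946885-134947184, minus strand: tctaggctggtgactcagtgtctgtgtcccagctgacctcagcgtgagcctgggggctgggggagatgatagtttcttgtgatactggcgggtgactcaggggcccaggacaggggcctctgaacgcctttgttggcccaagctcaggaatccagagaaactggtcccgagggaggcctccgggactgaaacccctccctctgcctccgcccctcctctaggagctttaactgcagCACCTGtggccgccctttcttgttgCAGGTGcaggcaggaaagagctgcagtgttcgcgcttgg

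The E-box letters stood in 6 of the 7 windows on either strand, against 20.2% of all windows of this length. Epcam, Cldn4 and the second Cldn7 window held 2 each, Krt8, Krt18 and Elf3 held 1 each, and the first Cldn7 window held none. The palindrome AACCGGTT, a motif of GRHL factors, was in 0 of the 7 windows and in 0.146% of all windows. The ETS core GGAA or its complement TTCC was in all 7 and in 96.0% of all windows. The letters TATAAA or their complement TTTATA were in the Krt8 window alone among the 7, against 13.6% of all windows. These are matches of letters and do not show that a factor binds.

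Whether a window lay under a region went with its number of CpG dinucleotides across all windows. Of windows with 5 to 9 CpGs, wild-type regions met 31.1% and knockout regions 32.2%. With 15 to 19 CpGs these shares were 79.5% and 83.0%. The Krt8 window held 6 CpGs and was met in both lists. The Epcam window held 11 and was met in neither, although 61.5% and 64.0% of windows with 10 to 14 CpGs were met. Elf3, with 12, was met in both lists, and Krt18, with 17, likewise. The second Cldn7 window also held 17 CpGs, and the wild-type region nearest to it began 25 bp further downstream.

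Of the 10 genes, 9 had a wild-type region and the same 9 had a knockout region. The background was 72.8% of all protein-coding genes for wild-type regions and 72.3% for knockout regions, so a region near an epithelial gene was not unusual in either list. Krt19 was the gene without one. Covered length was longer in the knockout at 5 genes (Epcam, Cdh1, Esrp1, Cldn4 and Cldn7) and shorter at 4 (Krt8, Krt18, Grhl2 and Elf3). Across all genes 35.1% were longer and 39.9% were shorter. A difference of at least 1.5-fold was seen at 3 longer genes (Esrp1, Cldn4 and Cldn7), against 10.9% of all genes, and at 2 shorter genes (Krt18 and Grhl2), against 9.37%. Krt18 and Grhl2 passed that fold narrowly, at 1.52 and 1.54, and Elf3 stood under it at 1.35. The median difference over the 10 genes was 16.5 bp and over all genes it was 0 bp. With the 20000 strongest regions kept in each list, the median of the 10 genes was −63 bp. With stricter −log10 q limits or narrower windows it was 169.5 to 346.5 bp, the highest over only the 6 genes with a RefSeq start.

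**Figure D1:**
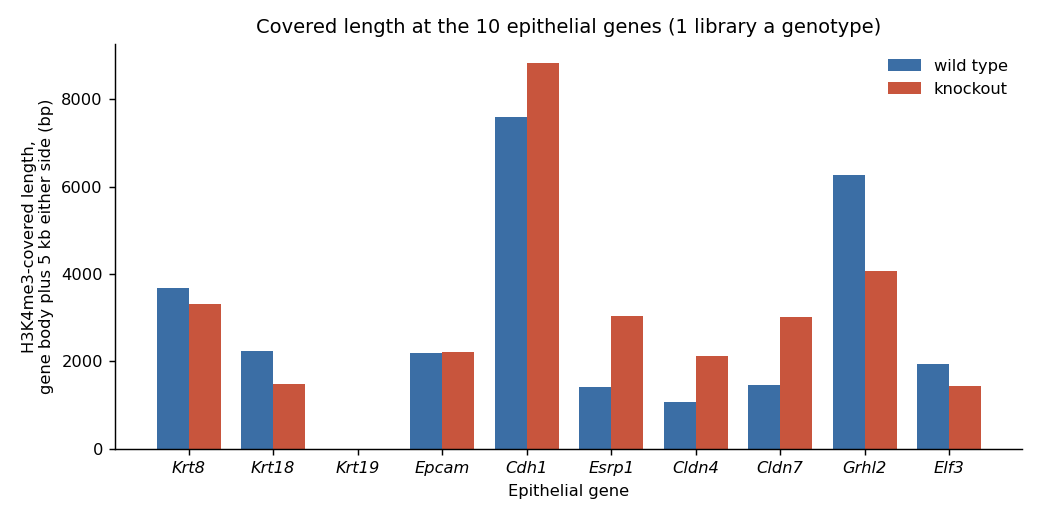
Bars give the covered length in bp within the gene body plus 5 kb either side for each of the 10 epithelial genes, in the wild-type and the knockout library. Esrp1, Cldn4 and Cldn7 were at least 1.5-fold longer in the knockout, Krt18 and Grhl2 at least 1.5-fold shorter, and Krt19 was at 0 bp in both.

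Long genes hold more regions, so covered length was also taken as a share of each window. On this scale the 10 genes ran from 0% to 20.8% in the wild type (median 9.50%) and from 0% to 23.1% in the knockout (median 10.1%). The medians over all genes were 5.61% and 5.81%. Krt8 had the highest share in the wild type and Cldn7 the highest in the knockout. Esrp1 had the lowest share above 0 in the wild type, at 2.19%, and Grhl2 the lowest in the knockout, at 2.89%.

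Krt8 and Krt18 encode the paired keratins of simple epithelia and lie near each other on chromosome 15. Krt8 (101996711 to 102004342) had 3670 bp under wild-type regions and 3311 bp under knockout regions. A single region in each list lay over its start, from 102002026 to 102005695 in the wild type and from 102001967 to 102005277 in the knockout. The summits lay 1387 and 1406 bp downstream of the start, only 19 bp apart. The authors' fold over local background was 23.0 in the wild-type list, within its strongest 13.3% of regions, and 26.8 in the knockout list, within its strongest 18.5%. Summit reads were 129 (wild type) and 96 (knockout), over local backgrounds of 4.64 and 2.62 reads. The higher fold in the knockout thus did not come with more summit reads. Krt8 thus kept a long region over its start and first part in both libraries. Over the gene body alone Krt8 was 59 bp longer in the knockout, so the direction of its small difference depended on the window.

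Krt18 (102028216 to 102032026) had 2233 bp under wild-type regions and 1472 bp under knockout regions. The start of the gene lay under a region in both lists, 701 bp wide in the wild type with a fold of 6.76 and 1055 bp wide in the knockout with a fold of 6.63. A second region upstream had its summit 2294 bp (wild type) and 2283 bp (knockout) before the start, and was 929 and 417 bp wide. The third wild-type region, 6330 bp downstream of the start, had no partner in the knockout list, and its summit held 15 reads. The shorter total in the knockout came from the flanks. Within 2500 bp of the start Krt18 had 1202 bp (wild type) and 1419 bp (knockout), and over the gene body it had 343 and 757 bp.

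Krt19 encodes a small keratin of ducts and glands and lies on chromosome 11 (100140810 to 100145926). It had 0 bp covered in both lists. The nearest wild-type region was 94.1 kb away and the nearest knockout region 94.2 kb away. In both lists the weakest regions rested on 10 reads at the summit, so a signal under that depth would not have been listed. Among 9 other keratin genes, 2 had a wild-type region (22.2%, against 72.8% of all genes) and 1 had a knockout region (11.1%, against 72.3%). Krt80 had 3817 bp (wild type) and 1826 bp (knockout), and Krt7, which like Krt8 belongs to simple epithelia, had 687 and 0 bp. The basal keratin gene Krt14 and the stem cell keratin gene Krt15 were at 0 bp in both lists.

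**Figure D2:**
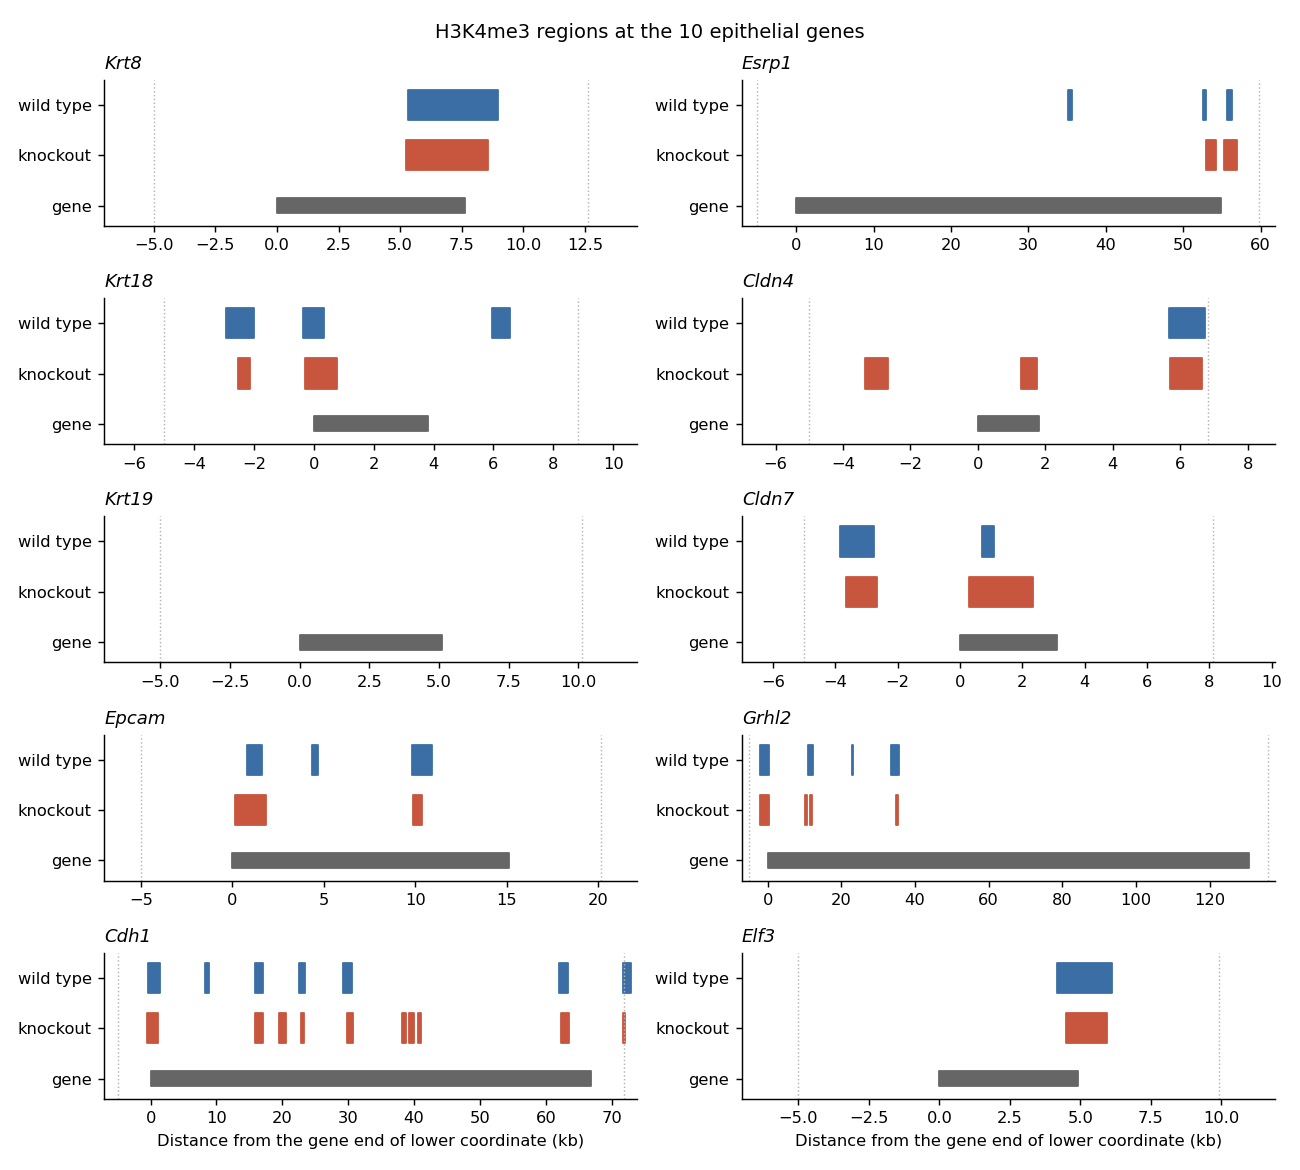
Each panel shows the regions of the wild-type and knockout lists at 1 gene, with the gene body as a grey bar, dotted lines at 5 kb either side, and distance from the gene end of lower coordinate in kb. In each list 20 regions overlapped a region of the other list, Krt19 had none, and Cdh1 had the most, with 7 wild-type and 10 knockout regions.

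Epcam encodes an adhesion glycoprotein of epithelial cell surfaces (chromosome 17, 87635979 to 87651127). It had 2190 bp under wild-type regions and 2223 bp under knockout regions, nearly the same total, but the regions were placed differently. The region after the start ran from 87636774 to 87637576 in the wild type, with a fold of 4.16, and from 87636123 to 87637833 in the knockout, with a fold of 6.63. It thus began 745 bp beyond the promoter window for wild type and 94 bp beyond it for knockout. Within 2500 bp of the start Epcam had 803 bp (wild type) and 1711 bp (knockout). A second shared region inside the gene had its summit 10195 and 10220 bp from the start, and was 1081 and 512 bp wide. A wild-type region of 306 bp with 12 reads at its summit had no knockout partner.

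Cdh1 (chromosome 8, 106603350 to 106670247) had 7586 bp under wild-type regions and 8824 bp under knockout regions, the highest of the 10 genes in both. Its end of lower coordinate lay under a region in both lists, 1790 bp wide (wild type) and 1639 bp wide (knockout). The authors' fold there was 5.13 in the wild-type list, where the region ranked within the top 68.8%, and 14.6 in the knockout list, where it ranked within the top 30.7%. The summits of this pair were 728 bp apart, so the 2 folds do not refer to the same position. The strongest Cdh1 region lay far inside the gene in both lists, with summits at 106666059 and 106666073, folds of 23.5 and 14.9, and 90 and 53 reads.

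The other 4 shared Cdh1 regions had summits 0, 3, 42 and 411 bp apart. Summits in the wild-type and the knockout list fell on the same base, 106633715, where the region was 1383 and 907 bp wide. Beyond the far end of the gene the summits were 3 bp apart. The wild-type list had 1 Cdh1 region without a partner, with 19 reads at its summit. The knockout list had 4, of which 3 lay together between 106641477 and 106644462 with 14, 26 and 14 reads. These 4 regions account for the longer total in the knockout, as the 6 shared regions were narrower there in every pair.

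Claudins are the membrane proteins that seal tight junctions. Cldn7 (chromosome 11, 69964779 to 69967886) had 1454 bp under wild-type regions and 3026 bp under knockout regions. The region inside the gene ran from 69965496 to 69965873 in the wild type, with a fold of 4.16, and from 69965081 to 69967122 in the knockout, with a fold of 6.36. Summit reads at this region were 15 (95% Poisson interval 8.4 to 24.7) in the wild type and 22 (13.8 to 33.3) in the knockout. The summits were 22 bp apart, and the knockout region spread over the second start while the wild-type region began after it. Of the gene body 12.2% lay under wild-type regions and 65.7% under knockout regions. A region 2895 bp before the first start in the wild type, and 2862 bp before it in the knockout, was 1076 and 984 bp wide. The neighbouring gene Elp5 lies 338 bp beyond Cldn7, and no listed region of Cldn7 reached it.

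Cldn4 (chromosome 5, 134945123 to 134946934) had 1079 bp under wild-type regions and 2130 bp under knockout regions. The gene itself had 0 bp (wild type) and 476 bp (knockout), under a region with its summit 268 bp downstream of the start, a fold of 5.80 and 20 reads (12.2 to 30.9). That region ended 8 bp short of the promoter window printed for Cldn4. The shared region lay upstream, with summits 4493 and 4456 bp before the start, widths of 1079 and 953 bp, and folds of 10.7 and 9.76. A further knockout region of 701 bp, with 12 reads, lay within Mettl27 and so may belong to that gene. With the 20000 strongest regions in each list only the upstream region remained, and its difference was then −126 bp, knockout minus wild type.

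**Figure D3:**
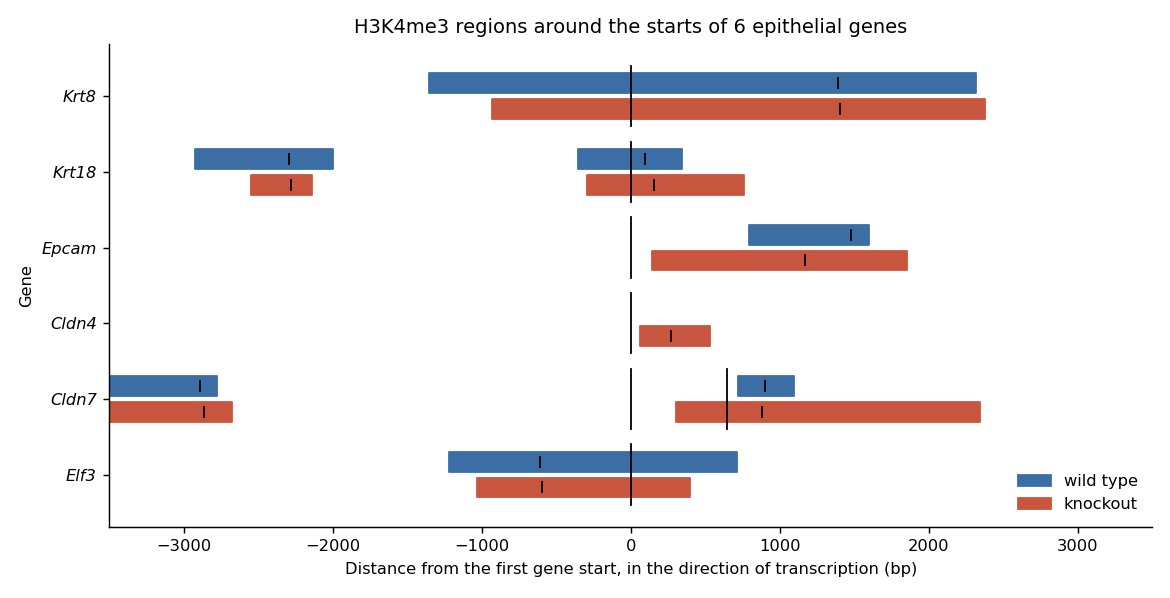
Regions of both lists within 3.5 kb of the first start of the 6 genes with a RefSeq start, drawn in the direction of transcription, with ticks at the summits and long vertical lines at the starts. Krt8, Krt18 and Elf3 were covered at the start in both lists, Cldn7 at its second start in the knockout only, Epcam downstream of the start in both lists, and Cldn4 downstream of the start in the knockout only.

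Esrp1 encodes an RNA-binding protein that directs epithelial splicing (chromosome 4, 11331933 to 11386783). It had 1417 bp under wild-type regions and 3033 bp under knockout regions. The long non-coding RNA gene Gm35631 lies 349 bp beyond the end of higher coordinate. The strongest region in both lists lay over Gm35631, just outside Esrp1. It was 658 bp wide in the wild type, with a fold of 5.20 and 19 reads, and 1731 bp wide in the knockout, with a fold of 9.67 and 34 reads. The summits were 23 bp apart. Inside the gene the lists had 759 and 1302 bp, under regions of 428 and 331 bp in the wild type and a single region of 1302 bp in the knockout. The 2 wild-type regions inside Esrp1 were weak, with 15 and 12 reads, and ranked within the top 94.0% and 94.2% of their list by p-value. At a −log10 q of at least 10, Esrp1 had no region left in the wild-type list and 1731 bp in the knockout list.

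Grhl2 encodes a grainyhead-like transcription factor that sustains Cdh1 and claudin expression in epithelia (chromosome 15, 37232821 to 37363569). It had 6263 bp under wild-type regions and 4062 bp under knockout regions. Its end of lower coordinate lay under a region in both lists, 2578 bp wide with a fold of 11.2 in the wild type and 2429 bp wide with a fold of 8.29 in the knockout. The long non-coding RNA gene Gm16136 overlaps that end, and the region cannot be assigned to either gene. The 2 other shared regions, further inside, were narrower in the knockout. One had summits 18 bp apart and was 1379 and 688 bp wide, with 52 and 22 reads. The other was 1975 and 563 bp wide, with 34 and 16 reads. The region at the gene end differed little in width, so the shorter total of Grhl2 in the knockout lay inside the gene.

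Elf3 encodes an ETS factor of epithelial cells (chromosome 1, 135253574 to 135258472). It had 1935 bp under wild-type regions and 1430 bp under knockout regions, under a single region over the start in each list. The summits were 611 and 600 bp upstream of the start, 11 bp apart. The wild-type region had a fold of 41.9, the highest of the 25 wild-type regions, and ranked within the strongest 2.66% of its list, with 160 reads (136.2 to 186.8). The knockout region had a fold of 21.0 and ranked within the strongest 23.3% of its list, with 75 reads (59.0 to 94.0). Both regions lay 5′ of the gene for most of their length, since 711 and 399 bp fell within the gene body.

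The regions of the 9 genes were then pooled. Of the 25 wild-type regions, 20 (80.0%) overlapped a knockout region by at least 1 bp, against 73.3% of the whole list. Of the 27 knockout regions, 20 (74.1%) overlapped a wild-type region, against 76.0%. With an overlap of at least 50% of each region required, 11 regions of each list were shared. With the 20000 strongest regions kept in each list, 4 of 9 wild-type and 4 of 6 knockout regions were shared. These stricter counts have no share over the whole lists beside them, so they say nothing particular about these genes. In the 20 pairs the summits were a median of 29 bp apart, and 14 were within 100 bp (70.0%). Over 32131 pairs across the genome the median was 74 bp and 56.7% were within 100 bp. The shares that overlapped by at least 1 bp were near those of the whole lists, so that overlap is not particular to these genes.

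Regions found in 1 list only had folds under the median of their whole list. The 5 wild-type ones had folds of 3.12 to 4.86 and 12 to 19 reads at the summit, and the 7 knockout ones had folds of 3.59 to 6.91 and 12 to 26 reads. Over all regions of the 10 genes, summits held 12 to 160 reads in the wild type (median 22) and 12 to 96 in the knockout (median 23). The medians of the whole lists were 30 and 29 reads. The median fold was 5.98 for wild-type and 6.63 for knockout regions, under the whole-list medians of 7.81 and 8.02. Of the 25 and 27 regions, 10 in each list stood above the median fold of their list. Most H3K4me3 regions at these genes were thus of ordinary or low strength, and those of Krt8, Elf3 and the far part of Cdh1 were the strongest.

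**Figure D4:**
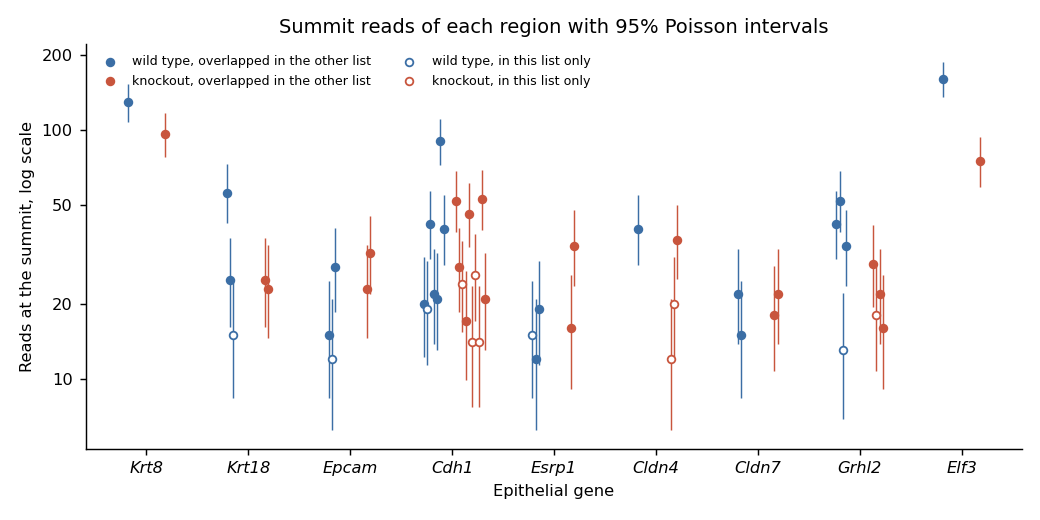
Points give the reads at the summit of each region, on a log axis, by gene and list, with 95% Poisson intervals that cover counting error only. Open points are regions without a partner in the other list, which held at most 19 (wild type) and 26 (knockout) reads, while Elf3 and Krt8 held the most in both lists.

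Other epithelial and mammary genes were described over the same window. Of 77 genes in 5 lists, 62 had a wild-type region (80.5%, against 72.8% of all genes) and 60 a knockout region (77.9%, against 72.3%). Covered length was longer in the knockout at 19 (24.7%, against 35.1% of all genes) and shorter at 44 (57.1%, against 39.9%). It was at least 1.5-fold longer at 3 (3.9%, against 10.9%) and at least 1.5-fold shorter at 12 (15.6%, against 9.37%). Their median difference was −169 bp, against 0 bp over all genes. Among 23 junction and adhesion genes, 7 were longer (30.4%) and 14 shorter (60.9%). Patj, a polarity scaffold, had 2726 bp (wild type) and 5393 bp (knockout). Tjp1, the tight junction protein ZO-1, had 13205 and 8716 bp, and Jup, plakoglobin, had 7702 and 5245 bp. Among these junction genes the shorter ones were in the majority, whereas Cldn4, Cldn7, Cdh1 and Epcam had longer totals in the knockout. The Epcam difference was only 33 bp. With the 20000 strongest regions in each list, Epcam and Cldn7 had no region left in either list. Cldn4 was then at −126 bp, and Cdh1 alone of these genes stayed longer in the knockout, by 901 bp.

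Among 17 other epithelial regulators, 6 were longer in the knockout (35.3%, against 35.1% of all genes) and 10 shorter (58.8%, against 39.9%). At least 1.5-fold longer were 0, against 10.9%, and at least 1.5-fold shorter were 3 (17.6%, against 9.37%). Tfap2a, an AP-2 factor, had 14292 bp (wild type) and 13002 bp (knockout), and Cebpb, also a myeloid factor, had 6942 and 4773 bp. Esrp2, the paralogue of Esrp1, had 3815 and 5155 bp, and Grhl3, a relative of Grhl2, had 6036 and 6755 bp. Ehf, an ETS factor related to Elf3, had 2432 and 565 bp. Trp63, the p53 relative of basal epithelium, had 1771 and 0 bp. Of 16 proteases, inhibitors and surface receptors, 4 were longer (25%) and 12 shorter (75%). Met, the receptor of hepatocyte growth factor, had 15275 and 8634 bp, and Egfr had 9452 and 4893 bp. Of 12 mammary hormone and milk genes, 2 were longer and 6 shorter. Esr1, the oestrogen receptor, had 9740 and 8398 bp, while Ltf, lactoferrin, had 0 and 1872 bp. Gata3 had 16111 and 17799 bp, but T cells use this gene as well.

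Mesenchymal genes, which tumour and stromal cells share, were longer at 3 of 10 (30.0%) and shorter at 6 (60.0%), with a median of −1496 bp. The shares over all genes were 35.1% longer and 39.9% shorter. The intermediate filament gene Vim had 9222 bp (wild type) and 7337 bp (knockout), and Snai1, a repressor of Cdh1, had 7126 and 4910 bp. Fn1, fibronectin, had 4432 and 2145 bp, and Prrx1 had 10108 and 5792 bp. The repressor gene Zeb1 had 4323 and 6866 bp, the one gene of this list at least 1.5-fold longer in the knockout. Zeb2, which lymphoid and myeloid cells also use, had 17635 and 19204 bp. Of 8 fibroblast markers 1 was longer (12.5%) and 6 were shorter (75%), and the median was −489.5 bp. Of 10 myeloid markers 3 were longer (30.0%) and 7 shorter (70.0%), with a median of −413.5 bp. Of 7 endothelial markers 1 was longer (14.3%) and 4 were shorter (57.1%), and the median was −34 bp. All 15 T cell markers were at least 1.5-fold longer in the knockout, against 10.9% of all genes, with a median difference of 8726 bp. The median of the 10 epithelial genes was 16.5 bp, or −63 bp with the 20000 strongest regions. With stricter −log10 q limits or narrower windows it was higher, from 169.5 to 346.5 bp. The highest of these covers only the 6 genes with a RefSeq start. No difference between these lists was tested.

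**Figure D5:**
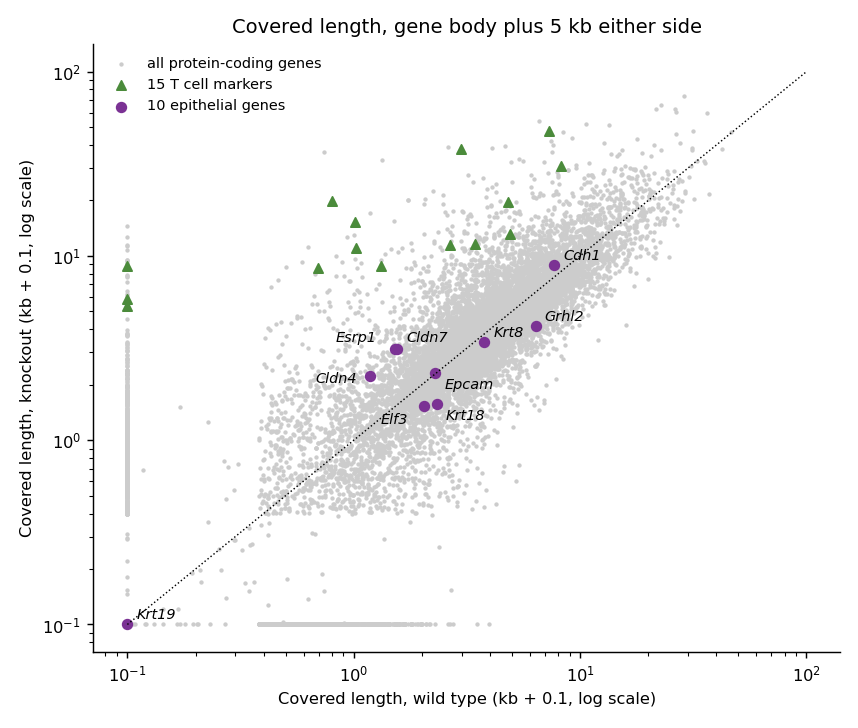
Each point is a gene, placed by its wild-type (x) and knockout (y) covered length, each in kb plus 0.1 on log axes, with the dotted line at equal lengths. The 15 T cell markers lie above the line, and the 10 epithelial genes lie on both sides of it.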

How the data were processed

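Native chromatin immunoprecipitation with micrococcal nuclease digestion was followed by Illumina sequencing, per the labels' protocols. The series lists 6 samples, of which the 2 H3K4me3 region lists entered the work. The others were not analysed here. Regions were called with MACS2 on GRCm38 (mm10), per the submitters' processing notes. The sources used here do not give the version, settings, aligner or use of input. The deposited fold is a ratio of summit reads to local background in the same library. Summit significance was deposited as −log10 p, −log10 q and a score (−log10 q times 10, not used). In the report they served to rank and filter regions within each list. Folds and summit reads of both lists were also printed side by side, without scaling between the libraries. In the closing section, summit reads recovered from the fold and −log10 p were scaled to each library's background and compared between the lists.

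Unplaced scaffolds and the mitochondrial genome were left out. Gene ends came from a RefSeq table (GRCm38.p6), in which all 10 genes and every gene of the other lists matched, and starts and promoter sequences from a RefSeq promoter table. Covered length was summed within the gene body plus 5 kb either side, clipped to that window. Overlap meant at least 1 bp and was computed in Python 3.11.15 with pandas 2.3.3, NumPy 2.4.6 and SciPy 1.17.1 (figures: Matplotlib 3.10.9). Overlaps had been planned with bedtools. The Python steps were tested on simulated regions, where covered length was right in 2000 of 2000 windows. Depth is not stated in the lists. Summit reads were recovered, as a step added after the data were seen, from fold = (reads + 1)/(background + 1) and a Poisson p, where the deposited −log10 p was under 250. The result came within 0.001 of that value for 48012 of 48014 (wild type) and 45835 of 45836 (knockout) regions. Exact Poisson intervals (95%) cover counting error only. The alternatives were stricter −log10 q limits of 5 and 10, the 20000 strongest regions, narrower windows and a stricter overlap. The text names the 10 genes, neighbours under their regions, and up to 4 members of each list with the largest difference and up to 4 with the longest coverage, with ties in alphabetical order. The genes and lists were chosen with earlier results of these data known.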

Additional observations from a re-analysis of the deposited data

How the results depend on the processing

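No paired analysis was possible because each genotype has 1 library. The counts of genes with a region and of longer and shorter genes stayed within 1.5 times the reported ones, apart from the values given here. With the 20000 strongest regions in each list, 4 genes had a region in the knockout (62.6% of all genes), 1 was longer there (31.0% of all) and 0 were at least 1.5-fold longer (10.5% of all), the median difference was −63 bp, Cldn4 was at −126 bp, and 4 of 9 wild-type and 4 of 6 knockout regions were shared. Genes at least 1.5-fold shorter numbered 0 with a −log10 q limit of 5 (8.45% of all genes) and 1 with a limit of 10 (7.9%). They numbered 1 with the gene body plus 1 kb (8.44%) and 0 within 2500 bp of the start (3.97%). The median difference was 169.5 bp with a −log10 q limit of 5, 175 bp with a limit of 10, 193.5 bp with the gene body plus 1 kb, 236.5 bp with the gene body only and 346.5 bp within 2500 bp of the start. Around the start, where 6 genes could be placed, 5 had a wild-type region and 2 were shorter. Of all genes with a start, 63.2% had a wild-type region there and 34.3% were shorter. Over the gene body only, 2 were also shorter, against 35.2% of all genes. Requiring 50% of both regions left 11 shared regions of 25 and 27. For this overlap and for the 20000 strongest regions, no shared portion of the whole lists is given beside the counts. Krt18 turned to 354 bp longer with the gene body plus 1 kb, 414 bp longer over the gene body and 217 bp longer around the start, and Krt8 to 59 bp longer over the gene body. Of 56 gene values under an alternative, 29 stayed within 1.5 times the reported difference, 22 moved further and 5 changed sign. What caused these changes was not tested. Regions under 10 summit reads were not listed, so weaker marks could not be seen at this depth.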

Other observations

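Summit reads divided by the genome-wide background of each library (2.85 reads for wild type, 2.62 for knockout) give a second view of the 20 region pairs, chosen after the data were seen. The ratio of knockout to wild type was above 1 at 7 pairs (35.0%) and had a median of 0.864, with quartiles of 0.623 and 1.49. Over 31252 pairs across the genome 45.2% were above 1, the median was 0.94 and the quartiles were 0.673 and 1.23. The Elf3 pair had 0.509 (95% counting interval 0.382 to 0.674) and the Krt8 pair 0.809 (0.614 to 1.06). The upstream Krt18 pair had 0.485 (0.29 to 0.79), and the inner Grhl2 pair at 37243726 had 0.46 (0.266 to 0.77). The other inner Grhl2 pair, at 37266385, had 0.511 (0.264 to 0.952). The Cdh1 pair beyond the far end of the gene, at 106675026, had 0.571 (0.32 to 0.991). The pair at the lower end of Cdh1 had 2.83 (1.66 to 5.00), with summits 728 bp apart, while the strongest Cdh1 pair, at 106665413, had 0.64 (0.447 to 0.908). A Cdh1 pair whose summits fell on 1 base had 2.38 (1.39 to 4.20). Regions of a single gene thus lay on both sides of 1. The Epcam pair after the start had 1.67 (0.833 to 3.43), the Cldn7 pair inside the gene 1.59 (0.79 to 3.30) and the Esrp1 pair over Gm35631 1.94 (1.08 to 3.61). The intervals lay wholly above 1 at 3 pairs (15%, against 15% of all pairs) and wholly below 1 at 6 (30.0%, against 17.6%). They cover counting error in 1 library a genotype and carry no test of genotype.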
